A study of Mus musculus with 55 samples.

Results

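The 5 genes described here were chosen because the share of their RNA that goes to a given isoform varied more between inbred lines than among mice of 1 line: Nlrp12, Rnf144b, Map1lc3a, Taf10 and 1300002K09Rik. They were selected on the intraclass correlation of the isoform ratio, the part of its variance that lies between lines, as the 5 highest of the 6215 genes with an isoform-ratio trait that are outside the study's tables of expression quantitative trait loci. In all, 6650 of the 37620 genes in the files had such a trait. The isoform ratio is the percentage of a gene's expression, per transcript length, that was assigned to 1 of its annotated isoforms.

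A gene can give several RNAs by starting at different first exons, by joining or skipping exons, by keeping an intron, or by ending early. Some of these RNAs encode the full protein, while others lack part of the coding sequence and are annotated as non-coding or as retained introns. The 5 genes belong to different pathways. Nlrp12 is a member of the NLR family of intracellular sensors and is known mainly from myeloid cells. Rnf144b is an E3 ubiquitin ligase of the RBR type. Map1lc3a encodes LC3A, an ATG8-family protein that is attached to the membrane of the growing autophagosome. Taf10 is a subunit shared by the general transcription factor TFIID and the coactivator SAGA. 1300002K09Rik, listed by RefSeq as Stra6l with the synonym Rbpr2, is a receptor for the retinol carrier of plasma and is known from liver.

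RNA was measured in livers of 55 untreated male mice from 29 lines of the Collaborative Cross, a panel of recombinant inbred mice, at 8 to 11.9 weeks of age and 12.8 to 38 g of body weight. The groups are the lines. Age went with the line, since all mates had the same age in 20 of the 21 lines with more than 1 mouse. Of the lines, 8 had 1 mouse, 16 had 2 and 5 had 3, so that 47 mice in 21 lines had a line mate. Each library held 20.5 to 34.0 M assigned fragments, with a median of 27.7 M.

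Over the expression levels of 11284 genes, chosen by level alone, the library closest to a mouse was a line mate for 42 of 42 mice in 19 lines and for 0 of the 5 mice labelled IL-1052 or IL-2750. Each of those 5 mice was closest to a mouse carrying the label of the other line. Hepatocyte markers were present in every library, with a summed level of 14290 to 63426 FPKM (fragments per kilobase of transcript scaled to library size) over 5 genes. The 2 IL-2146 libraries stood apart, with the lowest mitochondrial shares of fragments (0.771% and 3.13%) against a median of 6.75%.

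Among all 6650 isoform ratios the intraclass correlation had a median of 0.253, with quartiles of 0.0828 and 0.431, and a 95th percentile of 0.655. It was 0.983 for Nlrp12, 0.896 for Rnf144b, 0.878 for Map1lc3a, 0.875 for Taf10 and 0.871 for 1300002K09Rik, with standard errors over lines (jackknife) of 0.00795, 0.0450, 0.0349, 0.0356 and 0.0586. These values chose the genes and are given without a test. The last gene inside the selection, 1300002K09Rik at 0.871, differed little from the next gene outside it, Pnkd at 0.862. Counting also the genes in the study's tables, the 5 ranked between place 1 and place 8 of 6650. Of all isoform ratios, 1719 (25.8%) had a correlation above that of permuted line labels, at an adjusted permutation p below 0.05. Without IL-1052 and IL-2750 the 5 values were 0.980, 0.881, 0.881, 0.871 and 0.880.

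**Figure D1:**
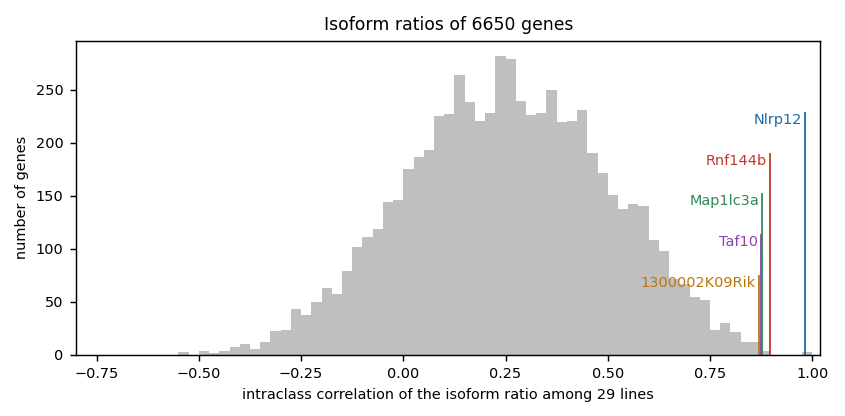
Histogram of the intraclass correlation of the isoform ratio among 29 lines (x axis, no unit) for 6650 genes (y axis, number of genes). Coloured lines mark the 5 genes described here, which lie at 0.871 or higher while the median gene is at 0.253.

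**Figure D2:**
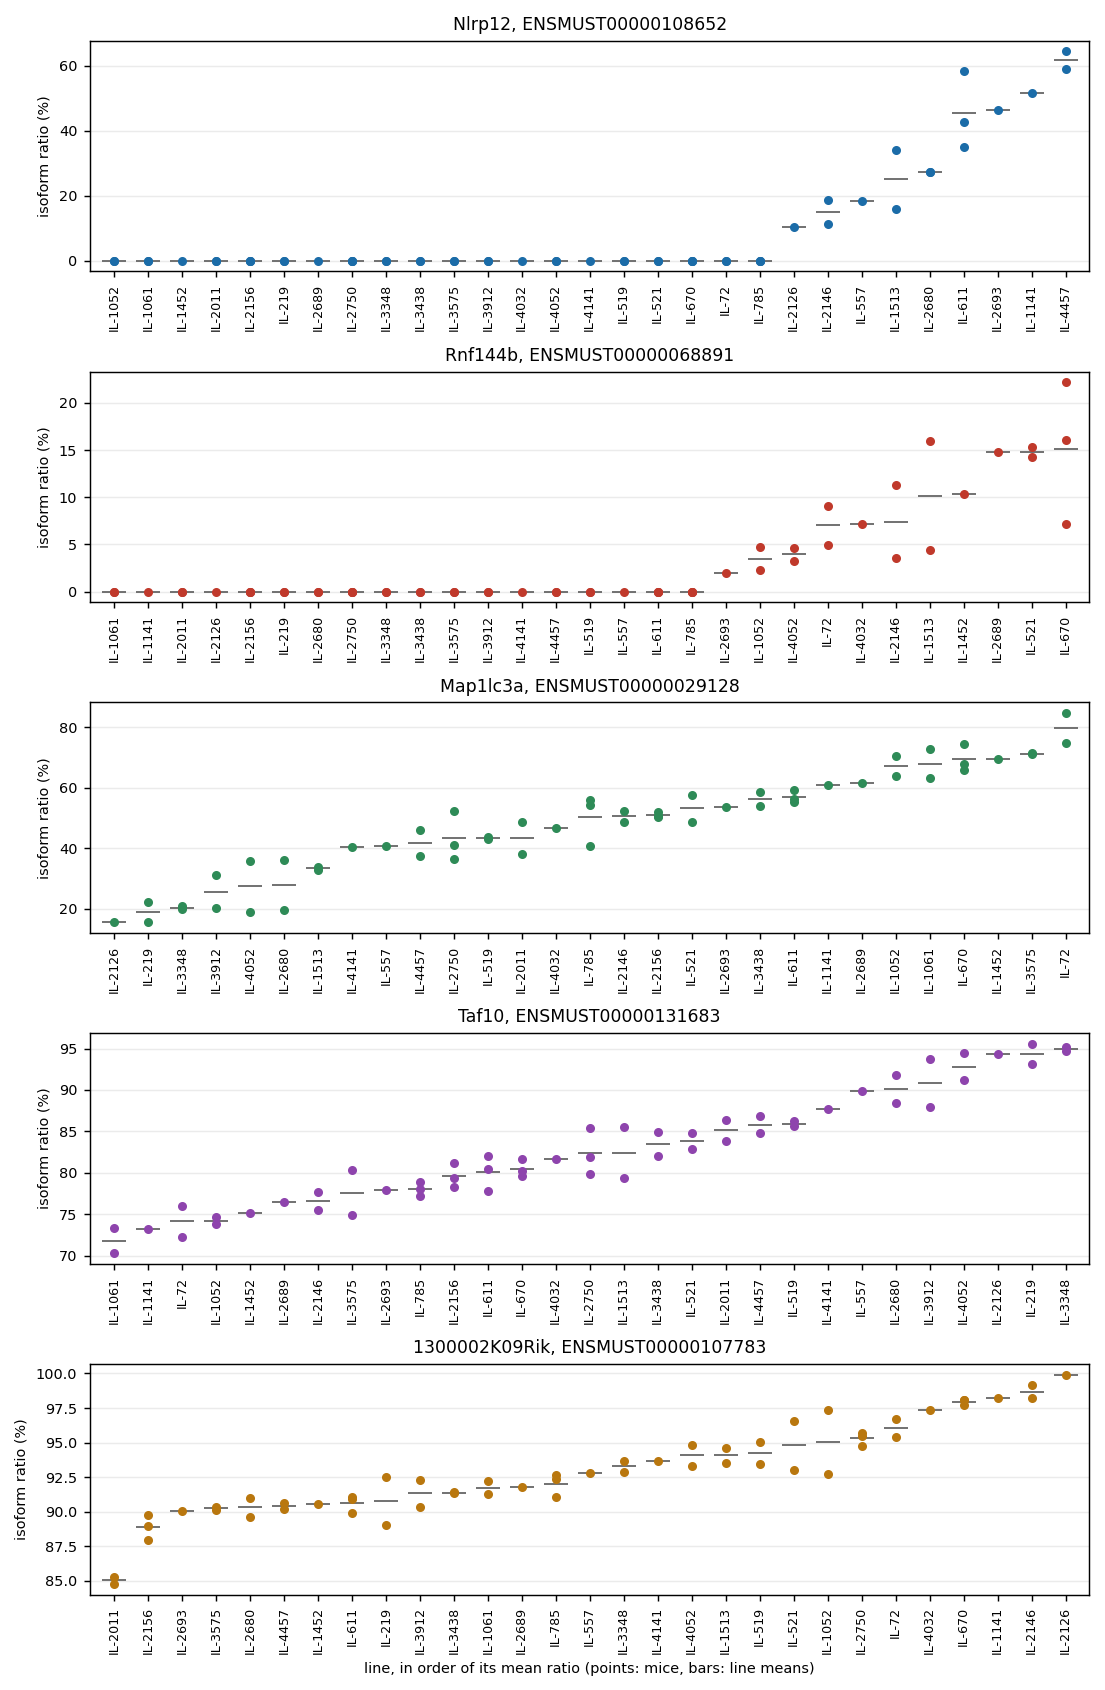
Isoform ratio in percent (y axes) of every mouse (points) with the line mean (grey bars), for the isoform named above each panel and with lines in order of their mean. Nlrp12 and Rnf144b are at 0% in 20 and 18 lines, whereas the ratios of Map1lc3a, Taf10 and 1300002K09Rik are above 0% in every mouse.

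**Figure D3:**
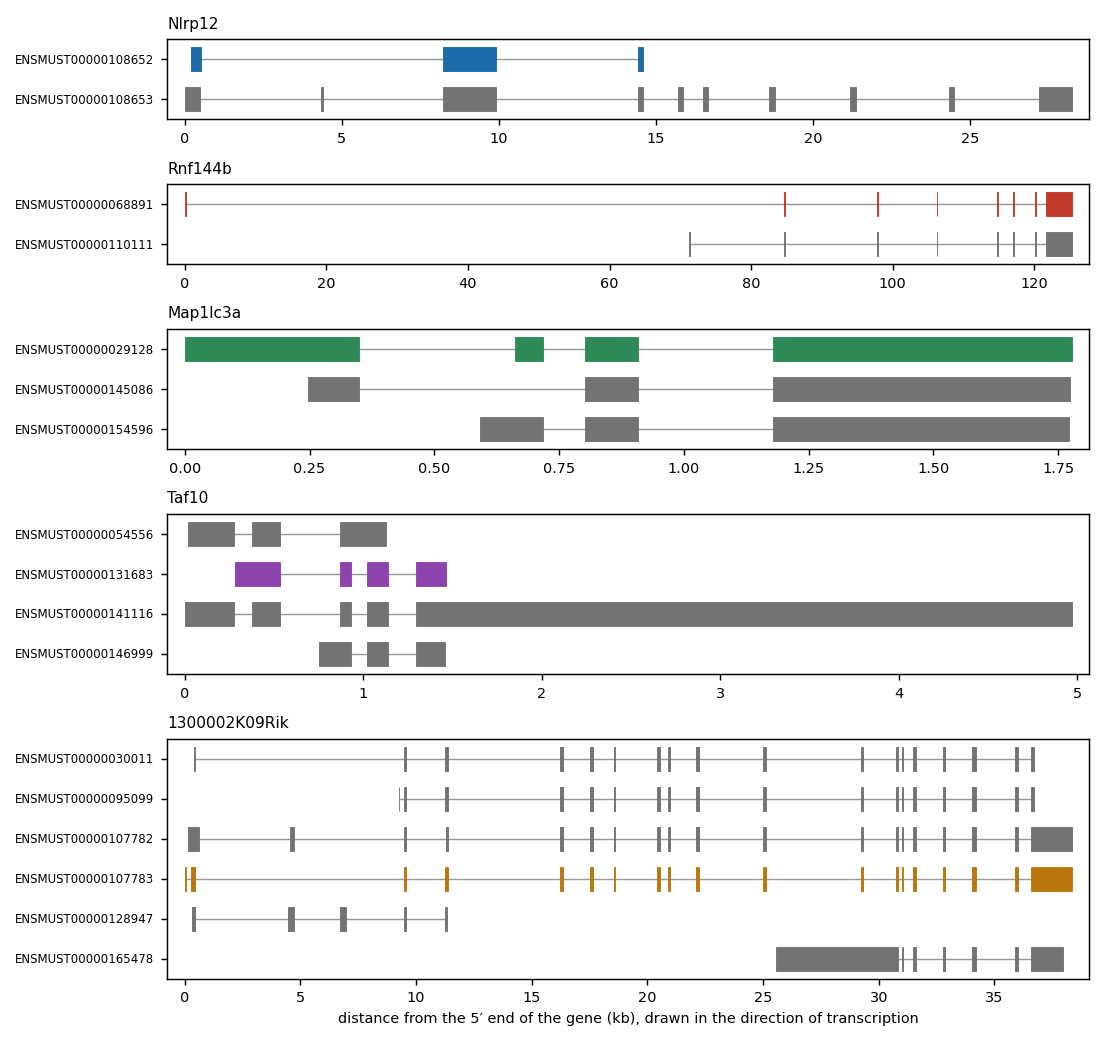
Annotated exons (boxes) and introns (lines) of each isoform of the 5 genes, as distance from the 5′ end of the gene in kb along the direction of transcription. The coloured isoform is that whose ratio was measured; it lacks the last 6 exons in Nlrp12, has an upstream first exon in Rnf144b, holds the first exon in Map1lc3a and lacks it in Taf10.

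Nlrp12 (ENSMUSG00000078817) lies on the minus strand of chromosome 7 (NCBIM37, chr7:3221511-3249741) and has 2 annotated isoforms. The long isoform, ENSMUST00000108653, has 10 exons, 4329 bases and 3162 coding bases. The short isoform, ENSMUST00000108652, has 3 exons and 2163 bases. Its first exon starts and ends at other positions than that of the long isoform. It skips exon 2, runs 4 bases past the splice donor of exon 4 and lacks every exon after it. Among the sequences in which the isoforms differ are exon 2 of the long isoform (capitals, chr7:3245330-3245410) and the end of exon 4 (chr7:3235125-3235184), where capitals mark the bases that the short isoform adds:
Nlrp12 exon 2: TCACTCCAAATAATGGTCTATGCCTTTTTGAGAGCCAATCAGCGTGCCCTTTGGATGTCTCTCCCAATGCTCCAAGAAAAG
Nlrp12 exon 4 end: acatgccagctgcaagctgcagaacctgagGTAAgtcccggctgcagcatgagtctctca

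The short isoform of Nlrp12 was present or absent by line, without exception among line mates. It was 0% in all 40 mice of 20 lines and above 0% in all 15 mice of the other 9 lines. Its ratio was 58.8 and 64.4% in the IL-4457 mice, 42.7, 58.3 and 35.1% in the IL-611 mice, 34.2 and 16.1% in the IL-1513 mice, 27.2 and 27.3% in the IL-2680 mice, and 18.7 and 11.2% in the IL-2146 mice. The single mice of IL-1141, IL-2693, IL-557 and IL-2126 had 51.5, 46.5, 18.4 and 10.3%. No mouse at 0% shared a line with a mouse above 0%. Among the 9 lines with the isoform the pooled SD over line mates was 9.01 percentage points, and 2 of the 8 steps between lines in order of their mean exceeded it, so most neighbours were not resolved.

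The lines with the short isoform were lines with little Nlrp12 RNA. Total expression in their 15 mice was 0.110 to 1.66 FPKM, with a median of 0.580, on 9 to 182 fragments for the whole gene. The 39 mice at 0% outside IL-1452 had 1.57 to 15.4 FPKM, with a median of 6.05, on 205 to 1987 fragments. The exception was the mouse of IL-1452, which had 0.110 FPKM, 12 fragments and a ratio of 0%. So 10 of 29 lines had means of 1.57 FPKM or less, and all 19 others had means of 3.59 FPKM or more.

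The depth at this gene limits what its ratio can say. The short isoform was assigned 1.34 to 38.1 fragments per mouse, and 3 or more in 11 of the 15 mice. In the first IL-4457 mouse 41.5% of fragments went to it (Wilson 95% interval 30.4 to 53.7%), and in the IL-2126 mouse 4.0% did (0.710 to 19.5%). These intervals treat assigned fragments as plain counts and leave out the error of the assignment. Nearly all bases of the short isoform also lie in the long one, so most fragments cannot tell them apart. The intervals, and the limits that follow, are thus narrower than the true uncertainty. Taken as a plain count, 0 allows a fragment share of up to 0.151 to 1.46% in the 39 mice and up to 25.0% in the IL-1452 mouse. The isoform's own level reached 0.720 FPKM, in IL-2693, while the long isoform ranged from 0.05 FPKM in IL-1141 to 13.6 in IL-2011.

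Over 29 line means, the ratio of the short isoform was negatively related to total expression, with Spearman's rho = -0.71 (adjusted permutation p = 0.000792) and Pearson's r = -0.68 against log2(FPKM + 1) (adjusted permutation p = 0.00205). The unadjusted p of rho, 1e-05, is the smallest that the permutations can give. Without the 2 lines farthest from the median ratio, IL-4457 and IL-1141, r was -0.62. The relation is that between 20 lines tied at 0% and 9 lines above it: among the 9 alone rho was 0.10. Among all isoform ratios, 587 of 6650 (8.83%) were related to their gene's total expression, 255 positively and 332 negatively, and of the 5 genes Nlrp12 and 1300002K09Rik were. Ratio and level come from the same fragments and are not independent measurements.

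**Figure D4:**
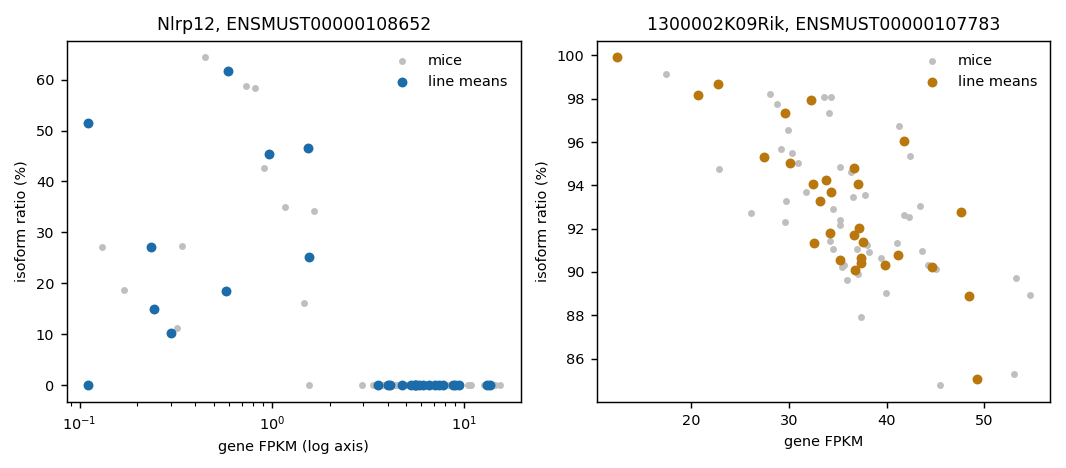
Isoform ratio in percent (y axes) against the gene's total expression in FPKM (x axes, logarithmic for Nlrp12, linear for 1300002K09Rik) for mice (grey) and line means (coloured). Nlrp12 ratios above 0% occur only at or below 1.66 FPKM, and the 1300002K09Rik ratio falls from 99.9% at 12.5 FPKM to 85.0% at 49.2 FPKM.

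Rnf144b (ENSMUSG00000038068) lies on the plus strand of chromosome 13 (chr13:47218089-47343360). Its 2 isoforms share 7 exons and all 903 coding bases, and differ in a non-coding first exon of 154 bases (ENSMUST00000068891) or of 118 bases (ENSMUST00000110111), 71.3 kb further on. The measured isoform is the one with the upstream first exon. The ratio thus compares 2 transcription starts that encode the same protein. The 150 bases before each start, chr13:47217939-47218088 and chr13:47289222-47289371, contained 70.7% and 61.3% G or C, with 17 and 6 CpG dinucleotides:
before the upstream start: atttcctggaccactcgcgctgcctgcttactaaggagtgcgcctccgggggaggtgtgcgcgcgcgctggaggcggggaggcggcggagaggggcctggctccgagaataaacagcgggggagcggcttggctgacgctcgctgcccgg
before the downstream start: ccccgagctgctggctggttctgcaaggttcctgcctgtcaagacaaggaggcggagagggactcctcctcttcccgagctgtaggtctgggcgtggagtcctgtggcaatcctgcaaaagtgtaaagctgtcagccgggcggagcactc

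The upstream start of Rnf144b was detected in 11 lines and in every mouse of them. In the other 18 lines it was 0% in all 36 mice, on 171 to 2075 fragments of the gene. If every one of these fragments could tell the isoforms apart, a share of up to 0.145 to 1.75% would be allowed. The isoforms differ only in the first exon, and fragments of the shared exons cannot tell them apart. The true limit is therefore wider. The highest line means were 15.2% ± 7.54 (SD, n = 3) in IL-670, 14.8% ± 0.735 (n = 2) in IL-521 and 14.8% in the single IL-2689 mouse. Line mates were always on the same side of 0 but differed within it: the 3 IL-670 mice had 7.20, 22.2 and 16.1%, and the 2 IL-1513 mice 15.9 and 4.43%. Of the 28 steps between neighbouring line means, 2 exceeded the pooled SD of 2.93 percentage points, so among the 11 lines the order is not resolved. Both the steps and this SD include the lines at 0%, whose mates did not differ. The spread among mates with the isoform was therefore larger than this SD. The mice with intermixed labels differed by label here, at 2.26 and 4.70% in IL-1052 and 0% in all 3 IL-2750 mice.

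In these 19 mice the upstream isoform was assigned 26.3 to 341 fragments. Rnf144b was expressed at 1.85 FPKM in the IL-2126 mouse to 16.5 ± 0.0778 FPKM (SD, n = 2) in IL-3438, a ratio of 8.93, or 6.02 without IL-2126. Mice with the upstream start had 4.67 to 13.7 FPKM, within the range of 1.85 to 18.8 FPKM of mice without it. Over 29 lines rho between ratio and total expression was -0.20 (adjusted permutation p = 0.585), and r was -0.11 (adjusted permutation p = 0.768).

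Map1lc3a (ENSMUSG00000027602) lies on the plus strand of chromosome 2 (chr2:155102033-155103809), inside the interval of Pigu, which is on the other strand and measured 4.24 to 8.88 FPKM. Its coding isoform, ENSMUST00000029128, has 4 exons, 1112 bases and 363 coding bases. ENSMUST00000154596, a processed transcript without annotated coding sequence, lacks exon 1 and starts 69 bases before exon 2. ENSMUST00000145086, also a processed transcript, joins exon 1 to exon 3. The coding part of exon 1 (chr2:155102343-155102382) and the start of the shorter transcript (chr2:155102625-155102749, with the bases before exon 2 in capitals) read:
Map1lc3a exon 1, coding part: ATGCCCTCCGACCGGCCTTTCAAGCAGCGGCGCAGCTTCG
Map1lc3a exon 2 with the bases before it: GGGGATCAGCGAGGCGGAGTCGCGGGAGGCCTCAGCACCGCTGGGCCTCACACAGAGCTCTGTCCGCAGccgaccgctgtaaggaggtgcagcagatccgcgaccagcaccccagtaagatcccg

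The coding isoform of Map1lc3a was from a minor to the dominant form depending on the line. Its lowest mouse had 15.5%, the median mouse 50.2% and the highest 84.7%. By line it ran from 15.5% in the IL-2126 mouse, 18.9% ± 4.76 (SD, n = 2) in IL-219 and 20.4% ± 0.870 (n = 2) in IL-3348 to 71.3% ± 0.233 (n = 2) in IL-3575 and 79.8% ± 6.93 (n = 2) in IL-72. The lowest and highest lines did not overlap, and 15 of 29 lines were above 50%. Neighbours in the order were not resolved: 2 of 28 steps exceeded the pooled SD of 6.01 percentage points.

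The isoform starting before exon 2 was the mirror image, with line means of 16.6% in IL-72 to 84.6% in IL-2126. The isoform that joins exons 1 and 3 stayed between 0 and 14.2% in all mice, and its intraclass correlation was -0.00627. Total expression of the gene was 17.4 ± 0.568 FPKM (SD, n = 3) in IL-785 to 46.8 in the IL-2126 mouse, a ratio of 2.70. In isoform FPKM, the coding form ranged from 3.94 in IL-219 to 24.3 in IL-72, and the form without exon 1 from 5.03 in IL-72 to 39.6 in IL-2126. Over 29 lines, rho between ratio and total expression was -0.29 (adjusted permutation p = 0.376) and r was -0.35 (adjusted permutation p = 0.216).

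Taf10 (ENSMUSG00000043866) lies on the minus strand of chromosome 7 (chr7:112887907-112892875), and 3533 bases of its interval are shared with Ilk on the other strand, which measured 15.5 to 27.0 FPKM. The counting was run with default settings, which do not use strand. Reads from exons of Ilk in the shared bases thus cannot be told apart from those of Taf10. Both overlaps are of whole gene intervals, and whether exons of Pigu overlap those of Map1lc3a was not examined. ENSMUST00000141116 is the coding isoform, with 5 exons, 4281 bases and a last exon of 3671 bases. ENSMUST00000131683, the measured isoform, is annotated as a retained intron: it lacks exon 1, begins with 98 of the 102 bases of intron 1, and ends after 601 bases. ENSMUST00000054556 has exon 1 and keeps intron 3. No annotated isoform holds exon 1 together with the short last exon. The end of exon 1, intron 1 and the start of exon 2 (chr7:112892469-112892630) read as follows, with the intron bases of the measured isoform in capitals:
Taf10 intron 1: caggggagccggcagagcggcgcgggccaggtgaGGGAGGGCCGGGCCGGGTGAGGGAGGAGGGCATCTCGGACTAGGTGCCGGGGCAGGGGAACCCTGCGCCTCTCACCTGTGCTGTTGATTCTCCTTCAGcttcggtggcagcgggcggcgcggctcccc

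The isoform without exon 1 had the highest ratio of the Taf10 isoforms in every mouse. This ratio, scaled to transcript length, ran from 70.3% through a median of 81.6% to 95.6%. By fragments the isoform's share was lower, from 47.7% in the first IL-1061 mouse to 73.2% in the second IL-219 mouse. The intraclass correlation of this fragment share was 0.632, below the 95th percentile of 0.655 over all isoform ratios. The high value of Taf10 thus depended on the scaling to transcript length. Line means of the ratio ran from 71.8% ± 2.14 (SD, n = 2) in IL-1061 to 94.4% ± 1.73 (n = 2) in IL-219 and 94.95% ± 0.283 (n = 2) in IL-3348. The pooled SD over line mates was 2.17 percentage points, and none of the 28 steps exceeded it, so neighbouring lines were not resolved. With this many lines in the range, small steps cannot show whether the lines fall into groups. The exon 1 isoform with intron 3 was the complement, at 21.9% in the IL-1141 mouse and 0% in every mouse of IL-2126, IL-219 and IL-3348.

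The coding isoform of Taf10 was between 2.69 and 8.41% in all mice, and its intraclass correlation was 0.373. The bases shared with the interval of Ilk lie within the long last exon of this isoform, and the measured isoform reaches only their edge. The part of Ilk reads in the coding share was not tested. The fourth isoform, ENSMUST00000146999, did not exceed 1.28% in any mouse. Taf10 was expressed at 33.8 ± 2.77 FPKM (SD, n = 2) in IL-219 to 68.1 ± 10.0 FPKM (n = 2) in IL-2146, a ratio of 2.02. Its ratio and level were not related beyond the threshold, with rho = -0.27 (adjusted permutation p = 0.434) and r = -0.33 (adjusted permutation p = 0.260).

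Map1lc3a and Taf10 are on different chromosomes, yet their ratios moved together across lines. Spearman's rho between the line means was -0.89 over 29 lines: where the Map1lc3a form with exon 1 was frequent, the Taf10 form without exon 1 was less so. Within lines, over the deviations of 47 mice from their line means, rho was -0.48, against 0.55 for Rnf144b with 1300002K09Rik and 0.39 for Nlrp12 with Taf10. IL-3348 and IL-219 had 20.4 and 18.9% for Map1lc3a with 94.95 and 94.36% for Taf10, and IL-72 and IL-1061 had 79.8 and 67.8% with 74.1 and 71.8%. The other pairs of the 5 genes had rho between -0.35 and 0.38 over lines.

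Many other genes followed the same order of lines. The isoform ratio most like that of Taf10 was 2810459M11Rik (rho = 0.95), then 1300018J18Rik (0.95) and Ppp2r5a (-0.94), and the most alike total expression was 2210411K11Rik (-0.91), then Tmsb10 (0.83) and Rpl39 (0.82). For Map1lc3a these were the ratios of Mrps24 (-0.89), Taf10 and Ppp2r5a (0.88), and the total expression of 2210411K11Rik (0.82), Rbm18 (-0.80) and Wnk1 (-0.79). Absolute rho exceeded 0.5 for 9.95% and 11.8% of isoform ratios elsewhere in the genome with Map1lc3a and Taf10, against 0.483% with Nlrp12, 0.709% with Rnf144b and 1.60% with 1300002K09Rik. Of the genes within 5 Mb of Map1lc3a and Taf10, 4 of 61 (6.56%) and 4 of 35 (11.4%) isoform ratios exceeded it, as did 7 of 48 (14.6%) and 3 of 30 expression levels, against 11.8% and 10.8% of expression levels elsewhere. These correlations share libraries and are a description over 29 lines.

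Properties of the libraries also varied by line and moved with these 2 ratios. The GC measure of a library, Spearman's rho over 8731 genes between exonic GC content and the library's departure from the median level, ran from -0.56 to 0.61 over mice and had an intraclass correlation of 0.559. Its line means had rho = 0.49 with the Map1lc3a ratio and -0.47 with the Taf10 ratio, and within lines 0.26 and 0.078. The share of expression in processed transcripts had rho of -0.64 and 0.57 with them, and the share in retained introns, the annotated type of the measured Taf10 isoform, -0.49 and 0.43. Within lines these were -0.16 and 0.35 for processed transcripts and 0.054 and 0.29 for retained introns. Over line means, absolute rho exceeded 0.5 for 8.89% of all 6650 isoform ratios with processed transcripts, 7.37% with the GC measure and 1.52% with retained introns. The GC content of exon 1 was 73.7% in Map1lc3a and 78.5% in the coding isoform of Taf10, against a median of 64.8% (quartiles 57.4 and 71.2%) over the first exons of 6619 measured isoforms. The first exon of the measured Taf10 isoform, which lacks exon 1, had 64.8%. In Map1lc3a the first exon of ENSMUST00000154596, which lacks exon 1, had 68%, and that of ENSMUST00000145086 had 77.9%. With a straight line on the GC measure removed, the intraclass correlations of the Map1lc3a and Taf10 ratios were 0.850 and 0.807. Such a line removes only a linear relation to a measure over all genes, and cannot remove an effect particular to these exons. The part of GC content and of the other library properties in the ratios was not tested.

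**Figure D5:**
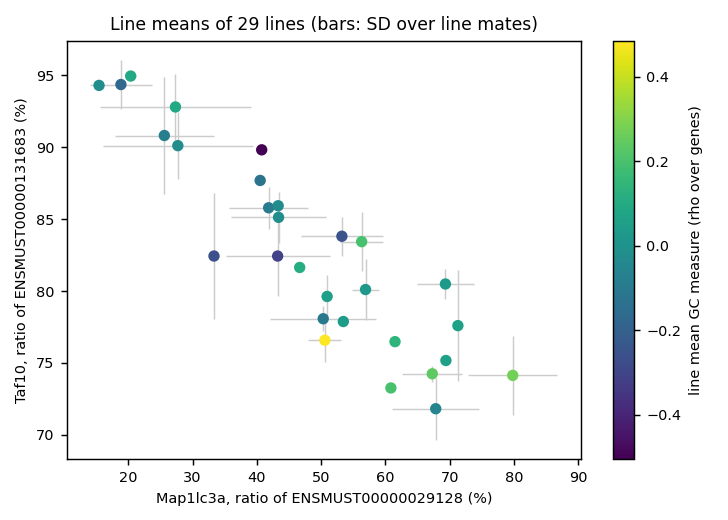
Line mean isoform ratio of Taf10 (y axis, percent) against that of Map1lc3a (x axis, percent) for 29 lines, with the SD over line mates as bars and the line's GC measure as colour. The lines fall along a descending band from 15.5% and 94.3% in IL-2126 to 79.8% and 74.1% in IL-72.

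1300002K09Rik (ENSMUSG00000028327) lies on the plus strand of chromosome 4 (chr4:45861536-45899880) and has 6 annotated isoforms. ENSMUST00000107783, the measured isoform, has 19 exons, 3669 bases and 1863 coding bases. ENSMUST00000107782 has other first and second exons and an acceptor 35 bases further into exon 4, with 1590 coding bases. ENSMUST00000165478 is a retained-intron transcript of 7254 bases that starts within an intron and reads through exon 12 and the intron after it. Exon 4 (chr4:45872808-45872908, with the bases before the inner acceptor in capitals) and the donor of exon 12 (chr4:45890827-45890886, with the retained intron bases in capitals) read:
1300002K09Rik exon 4: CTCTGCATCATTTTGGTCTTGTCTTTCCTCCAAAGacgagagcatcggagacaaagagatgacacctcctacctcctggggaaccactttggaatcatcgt
1300002K09Rik exon 12 end: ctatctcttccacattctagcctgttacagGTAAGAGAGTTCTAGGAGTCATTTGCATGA

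ENSMUST00000107783, 1 of 4 isoforms of 1300002K09Rik annotated as coding, was the main isoform in every mouse. It was 84.8% in the lowest mouse, 92.7% in the median mouse and 99.9% in the highest. The 2 IL-2011 mice had 84.8 and 85.3%, the 3 IL-2156 mice 87.9, 88.9 and 89.7%, the 3 IL-670 mice 97.7, 98.1 and 98.1%, and the 2 IL-2146 mice 98.2 and 99.1%. These 4 lines did not overlap one another. Over all 28 steps between lines, 4 exceeded the pooled SD of 1.17 percentage points. The 2 mice labelled IL-1052, at 92.7 and 97.3%, were the most different pair of line mates.

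The retained-intron transcript had the widest range of the other isoforms. Its line means ran from 0.08% in the IL-2126 mouse and 0.575% ± 0.0778 (SD, n = 2) in IL-2146 to 5.0% ± 0.853 (n = 3) in IL-2156 and 10.1% ± 1.42 (n = 2) in IL-2011, with an intraclass correlation of 0.880. ENSMUST00000107782 stayed at or below 4.39% in all mice, with an intraclass correlation of 0.559. ENSMUST00000128947, a processed transcript that ends in exon 4, was 0% in the IL-1141 mouse and 6.14% in the IL-2693 mouse. ENSMUST00000030011 was 0% in all 55 mice, and ENSMUST00000095099 did not exceed 0.640%.

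Lines with more 1300002K09Rik RNA had a smaller share in ENSMUST00000107783. Total expression was 12.5 FPKM in the IL-2126 mouse, 22.8 ± 7.54 (SD, n = 2) in IL-2146, 48.4 ± 9.59 (n = 3) in IL-2156 and 49.2 ± 5.30 (n = 2) in IL-2011. Over 29 lines rho was -0.74 (adjusted permutation p = 0.00161) and r was -0.77 against log2(FPKM + 1) (adjusted permutation p = 0.000541). Without IL-2011 and IL-2126, the lines farthest from the median ratio, r was -0.72. The gene had 932 to 5533 fragments per mouse, the most of the 5.

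Of the library measures, the length measure moved with this ratio: rho over line means was -0.60 with it, the relation over genes between exonic length and the library's departure from the median level. Within lines rho was -0.23. Of all 6650 isoform ratios, 9.49% had an absolute rho over 0.5 with the length measure over line means. For the ratio of 1300002K09Rik, rho over line means was 0.16 with the GC measure and smaller in size with the other measures. The part of the length measure in the ratio was not tested. The total expression most like the ratio was that of Acnat1 (rho = -0.76), an acyl-CoA transferase family gene 3.6 Mb away on chromosome 4, followed by Ptpmt1 (0.70) and Dpp9 (-0.70) on other chromosomes. Of the 49 expression levels within 5 Mb, 6 (12.2%) had an absolute rho over 0.5, against 2.16% of 5892 elsewhere. Of the 60 isoform ratios within 5 Mb, 1 (1.67%) did, against 1.60% elsewhere. The most alike isoform ratios were Tef (0.71), Mup11 (-0.67) and Mup13 (0.67). Mup11 and Mup13 belong to a family of near-identical genes, between which fragments can be split, and lie 14.8 and 15.0 Mb away.

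For Nlrp12, 0 of 18 expression levels and 0 of 24 isoform ratios within 5 Mb exceeded an absolute rho of 0.5. Elsewhere 0.557% and 0.483% did. For Rnf144b these counts were 0 of 15 and 0 of 16, against 0.489% and 0.709% elsewhere. With so few genes nearby and such small shares elsewhere, counts of 0 cannot show a difference. Most alike to the Nlrp12 ratio were the expression of Gm16548 (-0.62), Phlda1 (0.58) and Gm10036 (0.57) and the ratios of Gm14410 (0.63), Plxnb1 (0.63) and Sra1 (-0.62). Most alike to the Rnf144b ratio were the expression of Cyhr1 (0.73), Ypel3 (0.71) and Cybasc3 (0.59) and the ratios of Nsmaf (0.63), Cfhr2 (-0.62) and Pusl1 (-0.60). None of these is on the chromosome of its partner.

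All 5 genes also differed in total expression among the 21 lines with line mates, by edgeR's quasi-likelihood F test with Benjamini-Hochberg adjustment over 15285 genes. The adjusted p was 1.94e-08 for Nlrp12, 6.86e-07 for Rnf144b, 2.71e-06 for Taf10, 8.06e-06 for Map1lc3a and 0.000219 for 1300002K09Rik. That is what most genes did, since 13523 genes (88.5%) were called. Over these 21 lines the highest line mean FPKM divided by the lowest was 6.02 for Rnf144b, 2.16 for 1300002K09Rik, 2.14 for Map1lc3a and 2.02 for Taf10. For Nlrp12 the line means ran from 0.235 to 13.6 FPKM, with too few fragments at the low end for a fold to be given. Leaving out IL-1052 and IL-2750 changed none of these 5 calls.

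The other genes of the 4 pathways are given by their counts, to be read against the 88.5% of genes called in total expression and the 25.8% of isoform ratios called. In ATG8 conjugation, the ligase-like system that attaches LC3 to membranes, 14 of 15 genes besides Map1lc3a were called in total expression. Their isoform ratios were called in 1 of 7, Atg7, the activating enzyme, at an intraclass correlation of 0.659 and line means of 50.5 to 100%. Among genes of at least 0.5 FPKM in their lowest line, as for the lists that follow, Atg16l2 and Atg10 had the largest ratios of highest to lowest line mean, 15.4 and 3.41. Over the 21 lines with more than 1 mouse the first was 5.99. In TFIID and SAGA, 23 of 30 genes besides Taf10 were called in total expression and 1 of 22 in isoform ratio, Taf4a at 0.528. The subunits Taf7 and Fam48a varied most in level, with ratios of 5.08 and 3.33, or 3.69 and 2.15 over the 21 lines. The median intraclass correlation of those 22 ratios was 0.0828, against 0.253 over all traits.

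Among RBR ubiquitin ligases, 13 of 13 besides Rnf144b were called in total expression and 0 of 5 in isoform ratio. The highest of the 5 was Rnf31, the catalytic subunit of the linear ubiquitin ligase, at 0.234 (adjusted permutation p = 0.222). After Rnf144b, Rnf19b varied most in level, with a ratio of 3.04, or 2.42 over the 21 lines. In the NLR family and its adaptors, 13 of 16 tested genes besides Nlrp12 were called in total expression. Isoform ratios were called in 2 of 4: Nlrc5, the regulator of MHC class I genes, at 0.531, and Nlrp6 at 0.489. Nlrc5 and Nod1 also had the largest ratios in level, 4.62 and 3.82, or 2.58 and 2.62 over the 21 lines, while 13 of the 18 genes stayed below 2 FPKM in every mouse.

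Body weight, age and depth were not related to the ratio of any of the 5 genes at an adjusted permutation p below 0.05. For each of these 3 measures 0 of 6650 isoform ratios (0%) were called by Spearman's rho, and 238, 309 and 288 had an unadjusted p below that value. Among the 5 genes the largest absolute rho was -0.30, between Rnf144b and body weight (adjusted permutation p = 0.997).

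Markers of other cell types were low in these livers but varied. The summed level of 8 neutrophil markers ran from 0.440 to 137 FPKM with a median of 4.44, and 6 of the 8 had a median below 1 FPKM. Its rho over lines was 0.39 with the total expression of Nlrp12 and -0.075 with its ratio. The 6 Kupffer cell markers summed to 10.4 to 279 FPKM, with rho of 0.50 with the expression of 1300002K09Rik and -0.48 with the ratio of Rnf144b. For B and T cells (6 markers, 0.230 to 10.8 FPKM) rho was 0.50 with the Taf10 ratio. Endothelial (3 markers, 4.96 to 23.4 FPKM), stellate (3 markers, 0.670 to 61.4 FPKM) and bile duct markers (3 markers, 0.4 to 9.68 FPKM) had absolute rho of at most 0.49 with any ratio or level. No marker was at 0 in every mouse, and the part of cell composition in the ratios was not tested. Fewer cells of a type and less RNA per cell cannot be told apart in these whole-tissue samples.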

How the data were processed

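Liver RNA of 55 mice was sequenced in paired ends of 50 bases with a stranded library kit. Per the labels and the study's methods, the authors aligned reads with Bowtie 2 to transcripts of an Ensembl gene set (mm9) and quantified them with RSEM 1.2.18 at its default settings, which do not use strand. The deposited tables hold, per gene and isoform, expected counts, TPM, FPKM and, per isoform, its percent of the gene (IsoPct). Groups are the line labels, and replicate numbers follow accession order and pair nothing. The members and gene lists were chosen with earlier results of these data known.

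An isoform-ratio trait needed a gene maximum of at least 2 FPKM and at least 12 distinct levels, and the isoform with most levels was taken. Percentages were turned into van der Waerden scores and the intraclass correlation was taken from a one-way layout, with 100000 permutations of line labels and Benjamini-Hochberg adjustment. Relations used line means and 100000 permutations. Expected counts were rounded and tested with edgeR 4.0.16 (R 4.3.3) in 47 mice, with DESeq2 1.42.0 as an alternative. Total expression levels were FPKM as deposited. The p-values of relations measure the spread between line means, and the other p-values the spread between these mice. Coordinates, structures and sequences came from NCBIM37 with GENCODE vM1, whose transcript lengths matched the deposited lengths for every isoform of the 5 genes. Named genes were the 5 members, the 3 most alike per member and kind by absolute Spearman's rho, the next ratio below the members, overlapping genes, and from each pathway list the 2 highest intraclass correlations and the 2 largest ratios of highest to lowest line mean among genes with a lowest line mean of at least 0.5 FPKM. Nlrp6 was named after its values were seen. The scripts were tested on simulated data. Python 3.11.15 with numpy 2.4.6, pandas 2.3.3, scipy 1.17.1, numba 0.67.0 and pysam 0.24.0 was used. Level ratios over lines with 2 or 3 mice were added after seeing the data. Founder haplotypes were not used here.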

Additional observations from a re-analysis of the deposited data

How the results depend on the processing

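Of 807 recomputed values, 801 kept their direction, their side of the threshold or their size within the stated spread, and none reversed. With percentages in place of scores the intraclass correlation was 0.944 for Nlrp12 and 0.725 for Rnf144b. With the share of estimated fragments in place of IsoPct that of Taf10 was 0.632, and after removing a line on the GC measure it was 0.807. With only lines of 2 or 3 mice, 259 isoform ratios were related to total expression in place of 587. The causes of these changes were not tested, and the last setting also had fewer lines. Leaving out 1 mouse at a time gave intraclass correlations of 0.979 to 0.990 for Nlrp12, 0.890 to 0.945 for Rnf144b, 0.864 to 0.893 for Map1lc3a, 0.861 to 0.893 for Taf10 and 0.854 to 0.907 for 1300002K09Rik; the 0.945 was without the first IL-670 mouse. The edgeR fit was repeated without 24 single mice, with 13318 to 13832 genes called, and the other single mice were not run. Removing the GC line, IL-2126 or IL-2146 was chosen after seeing the data. No paired analysis was possible because the labels carry no replicate numbers that link mice across lines. Depth limits the Nlrp12 ratio most, at 9 to 182 fragments where the short isoform was seen.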
